A study of Mus musculus with 10 samples.

Results

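The change from day 8 to day 14 of cardiac differentiation in Rybp-null cultures was compared with the same change in wild type cultures, gene by gene, as a genotype-by-day interaction. The interaction is the null change minus the wild type change on the log2 scale, so a positive value means that a gene's level moved up more, or down less, in the null cultures. Its members are the 8 libraries of days 8 and 14, of 10 libraries in the series, chosen by genotype and day: 2 wild type and 2 Rybp-null libraries at each day. Mouse embryonic stem (ES) cells of the background 129x1 x 129S1, wild type or mutant for Rybp with no functional copy, were carried through hanging-drop embryoid bodies toward heart muscle, and total RNA of a whole culture dish was sequenced. The labels name no clone, so it is not known here whether the mutant is 1 line, and nothing says that the 2 libraries of a group came from separate differentiations; p-values then measure the spread between these libraries, which may be technical. Both genotypes share the strain, the medium and the protocol, and no other agent or allele is named.

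The 8 libraries held between 3028153 and 4164476 counts each, and the 2 libraries of a group correlated at Spearman 0.957 to 0.972 across genes. Levels are given as CPM, counts scaled to the size of the library after TMM scaling, in the order library 1 and library 2. Rybp stood at 38.3 and 43.1 CPM in wild type day 8, 19.5 and 23.5 in wild type day 14, 0.484 and 0.288 in null day 8, and 1.13 and 0.494 in null day 14, so each null library was far below each wild type library. The cardiac label was checked against 10 cardiomyocyte markers. Their summed level was 2611 and 2147 CPM in wild type day 8, 1065 and 932 in wild type day 14, 125 and 73.4 in null day 8, and 189 and 255 in null day 14. Nkx2-5, a defining factor of early heart muscle, was at or near 0 throughout, with 1 count in each wild type day and 0 in the null libraries.

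RYBP is a subunit of noncanonical Polycomb repressive complex 1, which places ubiquitin on histone H2A at developmental genes, and it also binds several transcription factors. In embryoid bodies, beating cardiomyocytes, vascular cells, blood cells and macrophages arise side by side, cell division slows as cells mature, and an interferon response raises antiviral genes through factors that include STAT2 and IRF9. In bulk RNA, fewer cells of a type and less RNA per cell cannot be told apart.

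The promoters of 3 genes that the results name are shown as examples in which a searched motif was found: an interferon target, a proliferation gene and a sarcomere gene. They are not typical of their groups, and the windows of Oasl2, Cmpk2, Smyd1 and Dut, named further on, held none of the motifs searched for in them. Cmpk2 was not in the interferon list and Dut was not in the cell cycle list. They are the 250 bases before the RefSeq start of each gene (GRCm38.p6, matched by symbol), read 5′ to 3′ on the gene's strand. They lie at chr19:34640639-34640888 on the plus strand for Ifit1, at chr7:135716380-135716629 on the minus strand for Mki67, and at chr2:76982548-76982797 on the minus strand for Ttn. Capitals mark, on either strand, the interferon-stimulated response element (2 copies of GAAA with any 2 bases between) in Ifit1, CCAAT and the cell-cycle homology region TTTGAA in Mki67, and the MEF2 motif in Ttn.
Ifit1: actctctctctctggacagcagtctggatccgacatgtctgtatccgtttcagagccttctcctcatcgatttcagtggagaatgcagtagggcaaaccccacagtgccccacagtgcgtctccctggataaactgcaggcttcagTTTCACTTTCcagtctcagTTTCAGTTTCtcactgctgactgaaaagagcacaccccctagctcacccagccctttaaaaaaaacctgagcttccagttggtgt
Mki67: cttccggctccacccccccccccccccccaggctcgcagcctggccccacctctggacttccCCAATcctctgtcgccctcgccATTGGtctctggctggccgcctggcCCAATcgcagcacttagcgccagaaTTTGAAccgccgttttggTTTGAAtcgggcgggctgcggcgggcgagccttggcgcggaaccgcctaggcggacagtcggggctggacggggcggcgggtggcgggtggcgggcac
Ttn: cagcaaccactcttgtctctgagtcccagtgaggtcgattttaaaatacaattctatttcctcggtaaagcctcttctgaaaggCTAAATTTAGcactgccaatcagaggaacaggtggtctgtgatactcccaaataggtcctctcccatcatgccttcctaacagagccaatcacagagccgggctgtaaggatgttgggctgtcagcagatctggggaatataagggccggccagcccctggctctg
The matches do not overlap one another. The 2 matches in Ifit1 begin 104 and 85 bases before the start, and the MEF2 match in Ttn 166 bases before it. In Mki67 the CCAAT matches begin 188, 166 and 141 bases and the TTTGAA matches 116 and 98 bases before the start. The interferon-stimulated response element was found in 8 of 19 windows of the interferon list (42.1%), against 2.98% of all 32851 windows. CCAAT was found in 29 of 36 windows of the cell cycle list (80.6%), against 33.8% of all, and TTTGAA in 10 of 36 (27.8%), against 16%, while GGCGGGAA, an E2F motif, was found in 0 of 36, against 1.86%. For the sarcomere list, the CArG box, the site of serum response factor, was found in 8 of 38 windows (21.1%), against 1.47% of all, and the MEF2 motif in 3 of 38 (7.89%), against 0.508%. GAGGAAGT, a motif of the myeloid factor PU.1, was found in 1 of 24 windows of the macrophage list (4.17%), against 2.44%. It was not found in the windows of Cd180, Cx3cr1 and Btk, of which Cd180 and Btk were not in that list. A match describes the letters in the window and is not a measured site.

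Of 15819 genes tested, 0 passed in the interaction by edgeR's quasi-likelihood test at an adjusted p of 0.05 (0%), 962 had an unadjusted p under 0.05 (6.08%), and DESeq2 called 8. Of the 962, 464 had a positive value (2.93%) and 498 a negative one (3.15%). The lowest adjusted p values were those of Ttn (0.0669), Cd180 (0.0731) and Smyd1 (0.0731), the 3 genes under 0.1. The median interaction over all genes was −0.02, and the middle 90% ran from −1.53 to 1.53. Precision was limited: the median standard error was 0.54 on the log2 scale for the interaction, against 0.38 for the change within either genotype. Changes and interactions are log2 values of the fit throughout. The median standard error of the interaction ran from 1.14 over 4770 genes under 5 CPM to 0.26 over 2027 genes above 100 CPM.

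The changes within each genotype did pass the test for many genes. In wild type 639 genes changed between the days (4.04%), 390 higher (2.47%) and 249 lower (1.57%) at day 14. In the null 1217 genes changed (7.69%), 678 higher (4.29%) and 539 lower (3.41%). Leaving out wild type day 8 library 1 or 2, or wild type day 14 library 1 or 2, brought the wild type count to 177, 108, 309 and 131. Leaving out null day 14 library 2 brought the null count to 613, and the other null libraries left 917 or more. The larger count in the null does not by itself show a larger change there.

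**Figure D1:**
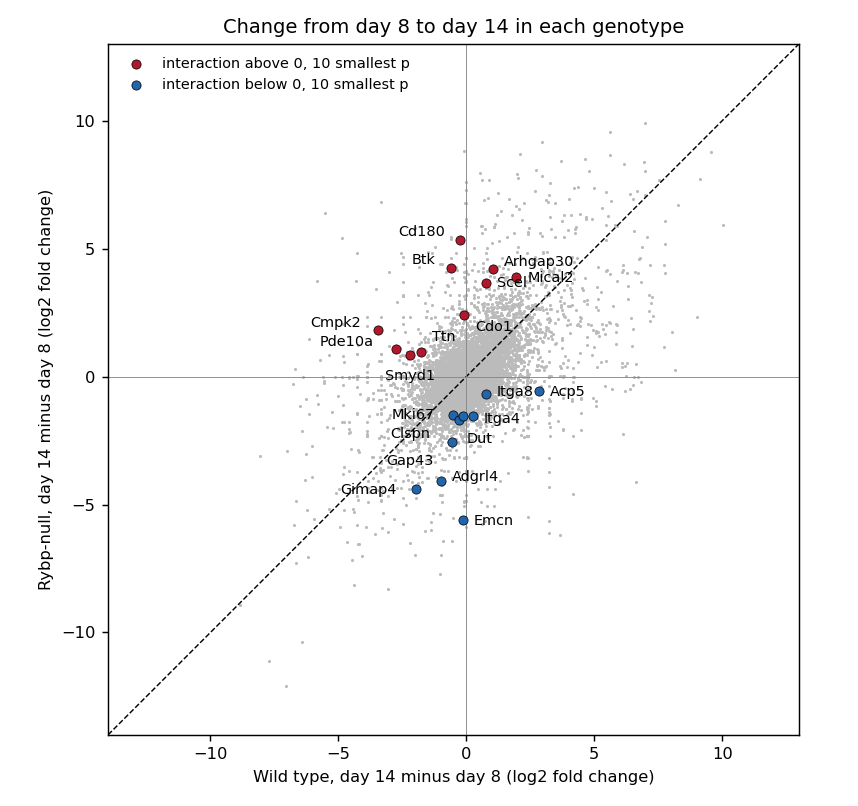
Log2 fold change from day 8 to day 14 in wild type (horizontal) and in Rybp-null cultures (vertical) for all 15819 genes tested, 1 grey point each, with equal change on the dashed line. The 20 coloured genes have the smallest interaction p in each direction; Ttn and Smyd1 lie above 0 in the null and below 0 in wild type, and Emcn at −0.12 in wild type and −5.61 in the null.

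Ttn, the giant spring protein of the heart muscle sarcomere, had the smallest p in the interaction. It stood at 1259 and 918 CPM in wild type day 8 and at 347 and 292 in wild type day 14. In the null it stood at 19.8 and 31.4 CPM at day 8 and at 40.8 and 57.8 at day 14. The wild type level thus fell from day 8 to day 14 while the null level was higher at day 14, and every null library remained below every wild type library. The wild type change was −1.77 (adjusted p = 0.00162), the null change 0.96 (adjusted p = 0.0442) and the interaction 2.72 ± 0.35 (SE; adjusted p = 0.0669). The null rise was lost (adjusted p up to 0.258) without any 1 of the 4 wild type libraries, without null day 8 library 1 or null day 14 library 2, and with the replicate block. The interaction itself ran from 2.43 to 3.09 on leaving out 1 library at a time, and whether it passed depended on the library left out.

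Smyd1, a muscle methyltransferase needed for sarcomere assembly, followed the same order. Its levels were 91.7 and 97.5 CPM in wild type day 8, 16.7 and 24.2 in wild type day 14, 5.32 and 4.32 in null day 8, and 7.32 and 10.1 in null day 14. Smyd1 fell in wild type (adjusted p = 0.00123), its null change was 0.85 (adjusted p = 0.169), and the interaction was 3.05 ± 0.44 (SE; adjusted p = 0.0731). Tnnt2, cardiac troponin T, stood at 520 and 464, 281 and 318, 72.1 and 20.4, and 102 and 181 CPM in the same order of groups. Its null day 8 libraries stood far apart, and all null libraries were below all wild type libraries. Its interaction was 2.32 ± 0.69 (SE; adjusted p = 0.718), and it ran from 1.70 to 3.51 on leaving out 1 library at a time.

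The sarcomere list held 39 genes, of which 33 passed the filter on low counts. No member passed in the interaction. Of the 33, 14 had a positive value at an unadjusted p under 0.05 and 1 a negative one, against 2.93% and 3.15% of all genes. Leaving out 1 library at a time changed both counts, and the negative count was higher without null day 8 library 2. The summed level of the list was 9407 and 8525 CPM in wild type day 8 and 6096 and 5325 in wild type day 14. In the null the days overlapped, at 4765 and 3544 CPM at day 8 and 4068 and 5046 at day 14. The median interaction was 1.09, or 1.02 with the 3 members at 0 counts in a group set at their bound, against −0.02 over all genes. It was 0.46 without null day 14 library 1 and 1.63 without null day 8 library 1. In wild type 6 members fell and none rose, against 1.57% and 2.47% of all genes. The 6 were Ttn, Smyd1, the atrial light chains Myl7 and Myl4, the thin filament protein Nebl and the splicing regulator Rbm24. Myl4, Nebl and Rbm24 were named after their values were seen, and Myl7 was a marker set with the design. The 6 became 2, 3, 4 and 2 without wild type day 8 library 1, day 8 library 2, day 14 library 1 and day 14 library 2. In the null 2 members rose, Ttn and the Z-disc protein Pdlim5, and the count was 0 without any 1 wild type library or with the replicate block and 1 without null day 8 library 2 or null day 14 library 2. Pdlim5 was named after its values were seen, and 2 of 33 is close to the 4.29% of all genes that rose in the null.

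Myosin heavy chains and actin lay low in the null on both days. Myh6, the alpha heavy chain, stood at 182 and 179 CPM in wild type day 8, 132 and 112 in wild type day 14, 0.725 and 1.73 in null day 8, and 9.85 and 0.742 in null day 14. Its interaction of 2.64 rested on 1 library: without null day 14 library 1 it was −0.09. Myh7, the beta heavy chain, had an interaction of 2.57 ± 0.92 (SE; adjusted p = 0.721) from 140 and 101, 49.0 and 32.7, 1.45 and 0.576, and 3.94 and 0.494 CPM, and without null day 14 library 1 the interaction was 0.53. Actc1, cardiac actin, stood at 370 and 375, 184 and 119, 7.5 and 0.863, and 9.29 and 1.98 CPM, and its interaction was 1.62 ± 1.01 (SE; adjusted p = 0.909). For Actc1 it was 3.92 and 0.85 without null day 8 library 1 and 2, and 0.17 without null day 14 library 1. In both genes the null libraries of the 2 days overlapped. Tnni3, the troponin I of mature heart and a marker set with the design, was the member with a negative value at an unadjusted p under 0.05, at −2.47. It stood at 3.83 and 1.69, 11.6 and 8.93, 3.63 and 4.03, and 4.22 and 0.989 CPM.

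Genes of calcium handling and ion channels gave 6 positive values at an unadjusted p under 0.05 and 0 negative ones among 29 of 33 members tested, against 2.93% and 3.15% of all genes. The median interaction was 0.48, and it was 0.03, 0.18 and 0.28 without null day 14 library 1, null day 8 library 2 and null day 14 library 2. The count of 6 was 4 without wild type day 8 library 1 or null day 14 library 2. Slc8a1, the sodium-calcium exchanger, stood at 161 and 133 CPM in wild type day 8, 141 and 111 in wild type day 14, 23.5 and 10.6 in null day 8, and 39.7 and 46.0 in null day 14. It rose in the null by 1.31 (adjusted p = 0.0229; up to 0.104 without null day 8 library 2 or null day 14 library 2), its wild type change was −0.22, and the interaction was 1.53 ± 0.42 (SE; adjusted p = 0.641). Cacna1d, an L-type calcium channel subunit, had an interaction of 1.87 ± 0.61 (SE; adjusted p = 0.718).

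Among cardiac transcription factors and progenitor genes, 26 of 33 were tested, 5 had a positive value at an unadjusted p under 0.05 (2.93% of all genes) and 0 a negative one, and the median was 0.43. The median was 0.67 without null day 8 library 1, and the count was 3 without wild type day 8 library 2, wild type day 14 library 1 or null day 8 library 2. Prdm16 lay at 1.92 and 3.10, 1.22 and 0.511, 0.725 and 1.15, and 6.48 and 4.70 CPM, with an interaction of 4.10 ± 1.02 (SE; adjusted p = 0.641). Myocd, the coactivator of serum response factor, stood at 29.4 and 29.6, 9.12 and 3.06, 5.80 and 8.06, and 18.9 and 3.46 CPM, and its interaction was 2.97 ± 0.94 (SE; adjusted p = 0.718), or 1.31 without null day 14 library 1. The null day 14 libraries of Myocd fell on both sides of the null day 8 libraries. Isl1, a marker of second heart field progenitors, fell in both genotypes, from 10.9 and 9.86 CPM to 1.52 and 0.511 in wild type and from 3.63 and 5.76 CPM to 0.282 and 0 in the null. The adjusted p for Isl1 was 0.0183 and 0.0103, the wild type call was lost without any 1 wild type library and the null call without null day 14 library 2 (up to 0.209 and 0.0804). In the smooth muscle list the median interaction was 0.53, and 2 of 17 tested members had a positive value at an unadjusted p under 0.05 (2.93% of all genes), the tropomyosin Tpm1 (0.64) and the calponin Cnn1 (1.59). Without null day 8 library 2 the smooth muscle median was −0.0028, without null day 14 library 2 it was 0.14 and without wild type day 8 library 1 it was 0.16. Without null day 8 library 1 it was 0.79 with a count of 7, and the count was 0 without wild type day 8 library 1 or wild type day 14 library 2 and 1 without either null day 14 library.

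**Figure D2:**
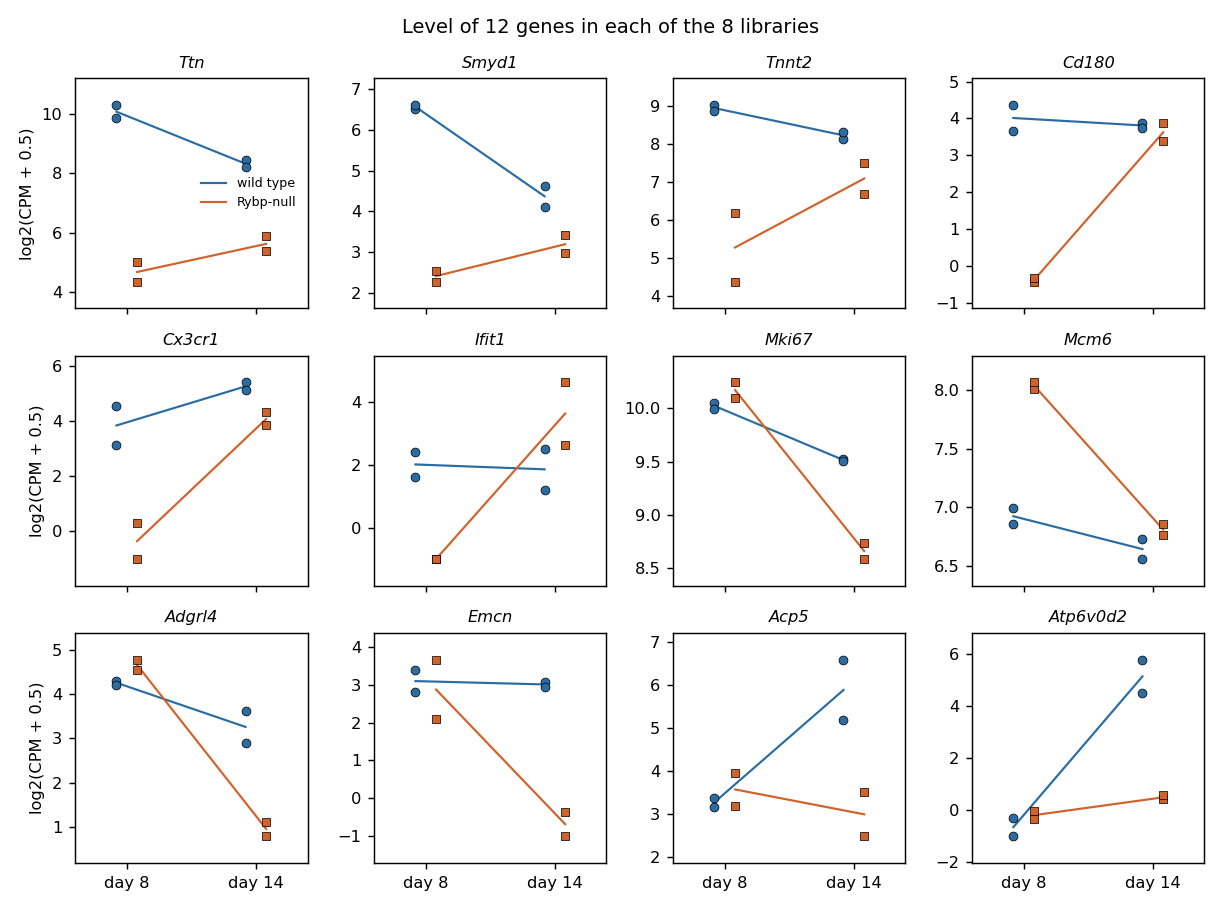
Level of 12 genes on the scale log2(CPM + 0.5) at days 8 and 14, 1 point a library, circles and blue for wild type, squares and orange for Rybp-null, lines through the means of the 2 libraries. The lines for Ttn and Smyd1 slope in opposite ways, those for Cd180, Cx3cr1 and Ifit1 start at or near 0 CPM in the null, and those for Mki67, Adgrl4 and Emcn drop further in the null.

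Macrophage genes rose in both genotypes and from a lower day 8 level in the null. The summed level of the 27 macrophage genes was 337 and 188 CPM in wild type day 8 and 1093 and 1326 in wild type day 14. It was 92.4 and 71.4 CPM in null day 8 and 555 and 594 in null day 14, so the null was below wild type on both days with no overlap. Of 26 tested, 14 rose in wild type and 20 in the null, against 2.47% and 4.29% of all genes, and none fell. Without wild type day 8 library 2 or day 14 library 2 the wild type count was 5 and 6, and without day 14 library 1 it was 9. Without null day 8 library 2 or null day 14 library 2 the null count was 13 each time. In the interaction 9 had a positive value at an unadjusted p under 0.05 and 1 a negative one, against 2.93% and 3.15% of all genes, with a median of 1.69, or 0.74 with 6 members at their bound. Those 9 became 3, 5 and 4 without wild type day 8 library 1, wild type day 14 library 1 and null day 8 library 2. The median was 0.69, 1.02 and 3.64 without wild type day 8 library 1, null day 8 library 2 and null day 8 library 1.

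Cd180, a Toll-like receptor relative of B cells and myeloid cells, was not in the macrophage list. It stood at 20.1 and 12.1 CPM in wild type day 8, 14.3 and 12.8 in wild type day 14, 0.242 and 0.288 in null day 8, and 14.1 and 9.89 in null day 14. The null thus went from 2 counts in both day 8 libraries together to a level that overlapped wild type at day 14. The pooled ratio of null day 14 to null day 8 was 45.1 (95% counting interval 12.1 to 378; null change adjusted p = 0.000498), against 0.848 in wild type, and the ratio of these ratios was 53.1 (13.5 to 453). Counting intervals and floors cover counting error only. Cx3cr1, the fractalkine receptor, stood at 23.0 and 8.17, 41.7 and 33.9, 0.725 and 0, and 13.8 and 19.3 CPM. It rose in the null (adjusted p = 0.00144), with a pooled ratio of 42.4 (14.2 to 208), against 2.48 in wild type. Cybb, a subunit of the phagocyte oxidase, had 0 counts in null day 8 and 6.48 and 7.66 CPM in null day 14, at least 18-fold higher against a floor of 3 counts over both libraries; in wild type it stood at 5.43 and 2.82 CPM and then at 17.6 and 15.3.

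Btk, a kinase of B cells and myeloid cells, and Arhgap30, a GTPase-activating protein, were among the 10 smallest p with a positive value. Neither was in the macrophage list. Btk stood at 12.5 and 7.89, 6.08 and 7.40, 0.484 and 0, and 6.48 and 4.70 CPM, a pooled ratio of 21.0 in the null (5.47 to 179) and 0.678 in wild type. Arhgap30 stood at 56.2 and 32.4, 75.1 and 107, 7.01 and 1.73, and 66.4 and 100 CPM, with a null change of 4.20 (adjusted p = 0.000547) and an interaction of 3.15 ± 0.62 (SE; adjusted p = 0.388). For both genes the null libraries were the lowest at day 8 and overlapped wild type at day 14. Csf1r, the macrophage growth factor receptor and a marker set with the design, rose in both genotypes, from 15.3 and 7.04 to 79.7 and 118 CPM in wild type and from 1.45 and 0.863 to 35.5 and 34.4 in the null.

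Osteoclast genes went the other way in the interaction. Osteoclasts are bone-resorbing cells of the macrophage lineage. Of 10 tested members of 15, 5 rose in wild type and none in the null, against 2.47% and 4.29% of all genes. In wild type 1 fell (1.57% of all genes), and the median change in the null was 0.51. The summed level was 196 and 126 CPM in wild type day 8 and 202 and 402 in wild type day 14, so library 1 of day 14 lay close to library 1 of day 8. In the null the sum was 131 and 124 CPM at day 8 and 145 and 126 at day 14. The median interaction was −1.58, and 5 had a negative value at an unadjusted p under 0.05 and 1 a positive one, against 3.15% and 2.93%. Those 5 became 3 without null day 8 library 1. The wild type count was 2 without wild type day 8 library 2 and 3 without wild type day 14 library 2. Acp5, tartrate-resistant acid phosphatase, stood at 9.90 and 8.46 CPM in wild type day 8, 35.9 and 96.2 in wild type day 14, 15.0 and 8.63 in null day 8, and 5.07 and 10.9 in null day 14. Both wild type day 14 libraries were above all others, and they stood far apart. Acp5 rose in wild type by 2.85 (adjusted p = 0.00786; up to 0.123 without wild type day 8 library 1 or 2 or day 14 library 2), its null change was −0.56, and the interaction was −3.41 ± 0.72 (SE; adjusted p = 0.388). Atp6v0d2, a proton pump subunit of osteoclasts, stood at 0.319 and 0 CPM in wild type day 8 and 22.2 and 54.6 in wild type day 14. In the null it stood at 0.484 and 0.288 CPM and then at 0.845 and 0.989. The pooled ratio was 266 in wild type (47.4 to 10544; adjusted p = 0.000454) and 2.34 in the null (0.534 to 14). Mmp9 and Ctsk, 2 matrix proteases named after their values were seen, rose in wild type from 1.92 and 0.564 to 34.7 and 65.3 CPM and from 1.28 and 0.564 to 22.5 and 86.3 CPM. The Ctsk call was lost without wild type day 8 library 2 (adjusted p = 0.0574). Their null day 14 levels were 6.19 and 19.3, and 1.41 and 4.20 CPM. Their wild type changes were 5.34 and 5.87 and their interactions −3.48 and −3.81. Both levels thus also went up in the null, by less, and those changes did not pass.

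Interferon response genes rose in the null. Of 23 tested members of 24, 15 rose in the null and 1 in wild type, the membrane protein Ifitm3, against 4.29% and 2.47% of all genes. In the interaction 12 had a positive value at an unadjusted p under 0.05 and 0 a negative one, against 2.93% and 3.15%. The median interaction was 2.22, or 2.09 with 2 members at their bound, and it was 1.41 without null day 14 library 1. The null count of 15 became 9, 8 and 8 without null day 8 library 1, null day 8 library 2 and null day 14 library 1, and was 16 without null day 14 library 2. The Ifitm3 call in wild type, a gene named after its values were seen, was lost without wild type day 8 library 2. The interaction count of 12 became 6, 7 and 4 without wild type day 8 library 1, wild type day 14 library 2 and null day 14 library 1. The summed level was 263 and 183 CPM in wild type day 8, 483 and 345 in wild type day 14, 128 and 164 in null day 8, and 1123 and 534 in null day 14. Both null day 14 libraries were the highest, and library 1 stood well above library 2.

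Ifit1, an RNA-binding antiviral protein, stood at 4.79 and 2.54 CPM in wild type day 8, 5.17 and 1.79 in wild type day 14, 0 and 0 in null day 8, and 23.9 and 5.68 in null day 14. The null level was at least 36.1-fold higher at day 14 than at day 8 (adjusted p = 0.00424), against a ratio of 0.927 in wild type, so the null ratio was at least 38.9-fold that of wild type; the interaction had an adjusted p of 0.388. Oasl2, an oligoadenylate synthetase relative, stood at 25.9 and 14.4, 74.8 and 16.8, 1.93 and 2.88, and 287 and 94.7 CPM. Oasl2 rose in the null by 6.31 (adjusted p = 0.0113), which was lost without null day 8 library 1 or 2 (up to 0.159), and its interaction was 5.13 ± 1.28 (SE; adjusted p = 0.672). STAT2 and IRF9, transcription factors of the interferon response, were named after their values were seen, and their genes rose in the null: Stat2 by 1.35 and Irf9 by 1.83. The Stat2 call was lost without any 1 library but null day 14 library 2, with the replicate block and without chromosomes 1, 6, 8, 14 and Y (adjusted p up to 0.404). Irf9 stood at 17.2 and 25.9, 26.8 and 27.6, 22.2 and 20.1, and 96.6 and 54.6 CPM, with both null day 14 libraries above all others. Stat2 changed by −0.25 in wild type and did not pass there. Ifit2 and Gbp2, also of the list and also named after their values were seen, had interactions of −0.14 and −0.26. Cmpk2, a mitochondrial nucleotide kinase that was not in the list, fell in wild type from 7.35 and 5.35 CPM to 0.608 and 0.511 (adjusted p = 0.035). That call was lost without any 1 wild type library. In the null Cmpk2 stood at 0.484 and 2.88 CPM at day 8 and at 5.91 and 5.68 at day 14. The macrophage marker sum moved in the same direction as the interferon list in the null, from 9.19 and 9.5 to 110 and 126 CPM, and in wild type from 67.4 and 42.0 to 268 and 359 CPM; the part of macrophages in the interferon values was not tested.

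**Figure D3:**
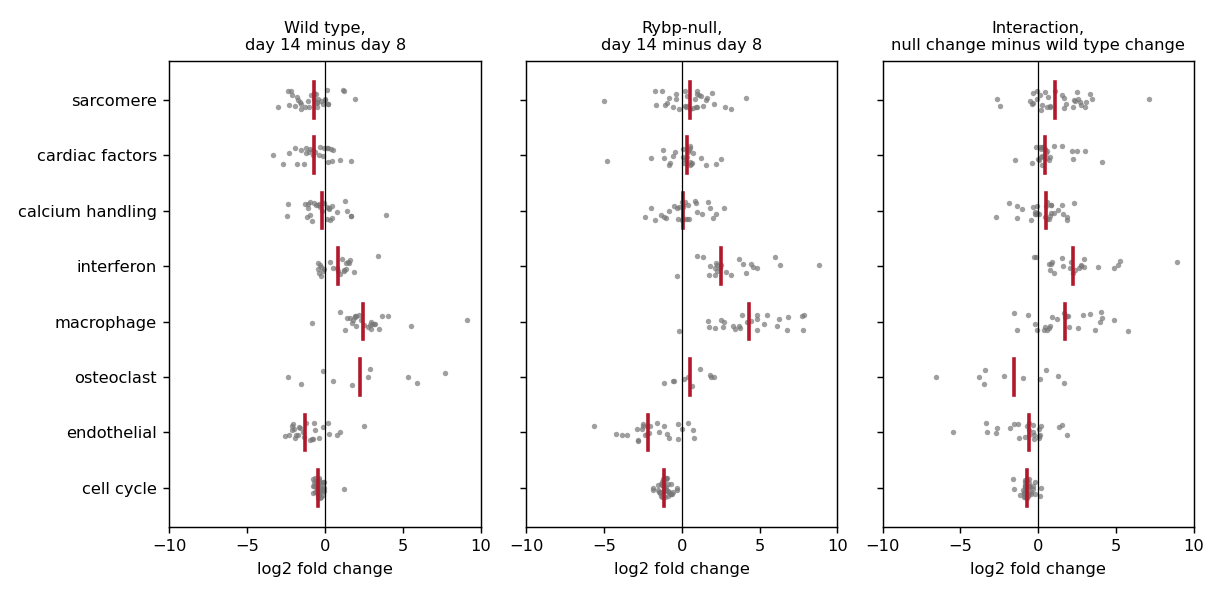
Log2 fold change from day 8 to day 14 in wild type and in Rybp-null cultures, and their difference, for the tested members of 8 gene lists, 1 grey point a gene, red bars at the medians. The interaction medians lie at 1.09 for sarcomere, 2.22 for interferon, 1.69 for macrophage, −1.58 for osteoclast, −0.57 for endothelial and −0.74 for cell cycle genes.

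Cell cycle genes fell in the null. Of 40 tested, 33 fell in the null, against 3.41% of all genes, and 1 fell in wild type (1.57%), Plk1, a mitotic kinase named after its values were seen. The median change was also below 0 in wild type, at −0.44, against −1.11 in the null. The Plk1 call was lost without any 1 wild type library and with the replicate block, and the wild type count was 5 without null day 8 library 1 or 2. In the interaction 23 had a negative value at an unadjusted p under 0.05 (3.15% of all genes) and 0 a positive one, and 38 of 40 values were below 0, with a median of −0.74. The null count was 19 without null day 14 library 2 and 26 or more without any other library. The interaction count of 23 was 11 without wild type day 8 library 1 and 13 without wild type day 14 library 2. The summed level was 5477 and 5858 CPM in wild type day 8 and 4120 and 4229 in wild type day 14. It was 6063 and 6772 CPM in null day 8 and 2741 and 2831 in null day 14, so the null was above wild type at day 8 and below it at day 14, with no overlap on either day.

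Mki67, the Ki-67 proliferation marker, stood at 1060.1 and 1019.9 CPM in wild type day 8, 735 and 727 in wild type day 14, 1096 and 1212 in null day 8, and 384 and 426 in null day 14. It fell in the null by 1.51 (adjusted p = 0.000154), its wild type change was −0.51 (adjusted p = 0.0796), and the interaction was −1.0 ± 0.21 (SE; adjusted p = 0.388). Mcm6, a subunit of the replicative helicase, stood at 115 and 127, 94.0 and 106, 257 and 267, and 108 and 116 CPM, so it was highest in the null at day 8. Mcm6 fell in the null by 1.23 (adjusted p = 0.000856), and its interaction was −0.95 ± 0.23 (SE; adjusted p = 0.641). Clspn, a replication checkpoint adaptor, and Dut, which clears dUTP, were not in the list. They were among the 10 smallest p with a negative value, at −1.41 and −1.42. Both fell in the null (adjusted p = 0.000606 and 0.00223), and neither passed in wild type. Uhrf1 and Ezh2, chromatin factors of dividing cells, fell in the null by 1.69 and 0.90. The Ezh2 call was lost without null day 14 library 2 (adjusted p = 0.085). The interaction was −0.95 for Uhrf1 and −0.52 for Ezh2.

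Some endothelial genes fell in both genotypes, and 18 of the 26 tested had a negative interaction value. Of the 26, from a list of 30, 5 fell in wild type, 9 fell in the null and none rose, against 1.57% and 3.41% of all genes lower. The median interaction was −0.57, with 5 negative and 2 positive values at an unadjusted p under 0.05, against 3.15% and 2.93%. The 5 became 3 without wild type day 8 library 1 or wild type day 14 library 1, and the 2 became 0 without either wild type day 8 library, wild type day 14 library 2 or null day 14 library 1 and 1 without null day 8 library 2. The median was −1.31 without null day 14 library 1 and −0.34 without null day 14 library 2. The wild type count was 2, 1 and 1 without wild type day 8 library 1, day 8 library 2 and day 14 library 2, and 8 without either null day 14 library. Adgrl4, an adhesion receptor of blood vessels, was not in the list. It stood at 19.2 and 18 CPM in wild type day 8, 7 and 11.7 in wild type day 14, 26.8 and 22.7 in null day 8, and 1.69 and 1.24 in null day 14. It fell in the null by 4.06 (adjusted p = 0.000353), its wild type change was −0.98 (adjusted p = 0.177), and the interaction was −3.09 ± 0.58 (SE; adjusted p = 0.388). Emcn, the endothelial sialomucin endomucin, stood at 9.90 and 6.48, 7.91 and 7.15, 12.1 and 3.74, and 0.282 and 0 CPM. The null went from 63 counts at day 8 to 1 at day 14, a pooled ratio of 0.0159 (95% counting interval 0.000396 to 0.0919; adjusted p = 0.00489), against 0.927 in wild type. Lmo2, a partner of blood and vessel transcription factors, fell in both, by 1.45 in wild type (adjusted p = 0.0134; up to 0.142 without any 1 wild type library) and by 2.78 in the null (adjusted p = 0.000362). Cdh5, VE-cadherin and a marker set with the design, went the other way. It stood at 31.6 and 33.5, 19.5 and 6.64, 55.1 and 38.3, and 55.7 and 38.1 CPM, with a null change of 0.00 and an interaction of 1.34. Pecam1, another junction protein and a marker set with the design, fell in the null from 43.0 and 34.5 to 11.3 and 7.42 CPM.

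Other named genes with a negative value included Gimap4, a GTPase of lymphoid cells, at −2.42, the integrin subunits Itga4 and Itga8 at −1.78 and −1.44, and Gap43, a growth cone protein, at −1.97. Gimap4 fell in both genotypes, from 46.6 and 42.0 to 8.52 and 14 CPM in wild type and from 99.1 and 71.7 to 4.22 and 3.95 in the null. Itga4 stood at 43.8 and 41.1, 52.3 and 49.0, 49.8 and 40.6, and 16.3 and 15.1 CPM, so the null day 14 libraries alone were low, and it fell there by 1.53 (adjusted p = 0.00289). Gap43 stood at 46.0 and 53.5, 39.5 and 27.3, 50.8 and 47.8, and 11.5 and 5.44 CPM and fell in the null by 2.55 (adjusted p = 0.000877). The neural list had a median of −1.08, with 3 of 15 tested members at a negative value and an unadjusted p under 0.05 (3.15% of all genes). The neural median was −0.66 without wild type day 14 library 1 and −0.60 without null day 14 library 1, and the count was 2 without any 1 library but wild type day 14 library 2 and null day 14 library 2.

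Other named genes with a positive value included Scel, an epithelial precursor of the cornified envelope, at 2.87, Mical2, an actin-oxidising enzyme, at 1.94, and Cdo1, cysteine dioxygenase, at 2.51. Scel stood at 28.7 and 11.6, 35.0 and 33.9, 6.77 and 9.21, and 81.9 and 119 CPM, and rose in the null by 3.65 (adjusted p = 0.000353). Mical2 rose in both genotypes, from 31.3 and 22.8 to 93.7 and 116 CPM in wild type and from 8.70 and 8.06 to 103 and 147 in the null. Cdo1 stood at 29.7 and 32.1, 34.1 and 24.2, 7.74 and 3.45, and 25.6 and 35.3 CPM, so the null day 8 libraries alone were low. Pde10a, a cyclic nucleotide phosphodiesterase, fell in wild type from 8.62 and 8.74 to 1.52 and 1.02 CPM (adjusted p = 0.0206; up to 0.214 without any 1 wild type library), with 13.1 and 7.48 and then 29.3 and 14.3 CPM in the null and an interaction of 3.83.

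**Figure D4:**
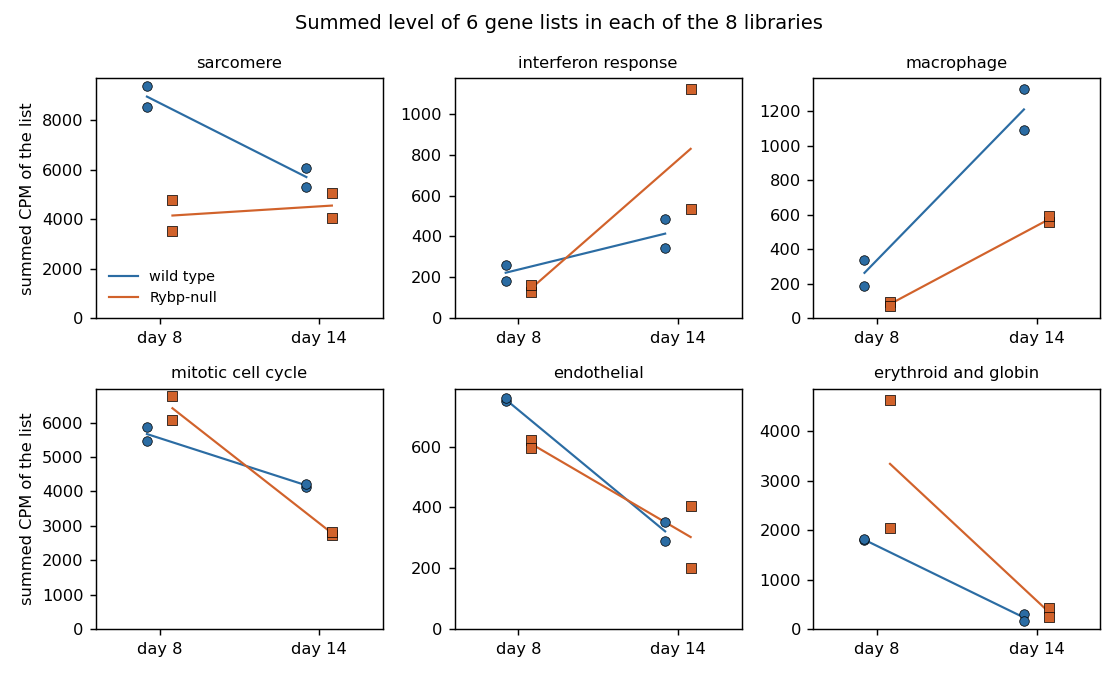
Summed CPM of 6 gene lists at days 8 and 14, 1 point a library, circles and blue for wild type, squares and orange for Rybp-null, lines through the means. Sarcomere sums are lower at day 14 in wild type. Endothelial sums are lower and macrophage sums higher at day 14 in both genotypes. Interferon sums are highest in null day 14 at 1123 and 534 CPM, and cell cycle sums are lowest there at 2741 and 2831 CPM.

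Several groups changed in both genotypes. Of 19 red blood cell genes tested, 14 fell in wild type and 16 in the null, against 1.57% and 3.41% of all genes, with summed levels of 1795 and 1811, 294 and 167, 4630 and 2052, and 420 and 242 CPM. The wild type count was 9, 8 and 9 without wild type day 8 library 1, day 8 library 2 and day 14 library 2. In the interaction 5 red blood cell genes had a negative value at an unadjusted p under 0.05 and 1 a positive one, against 3.15% and 2.93% of all genes, with a median of −0.76, or −0.06 with 5 members at their bound. The red blood cell median turned to 0.62 without wild type day 14 library 1, with 1 negative and 3 positive values at that threshold. It was −0.23 without null day 8 library 1 and −1.21 without null day 8 library 2, and the 5 became 3, 2 and 2 without wild type day 8 library 1, null day 8 library 1 and null day 14 library 2.

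Epicardial genes, of the heart's outer layer, rose for 5 of 10 tested in wild type and 8 of 10 in the null, against 2.47% and 4.29% of all genes, with a median interaction of 0.68. The median turned to −0.38 without null day 14 library 2, and it was 1.45, 0.27 and 0.30 without null day 8 library 1, null day 8 library 2 and wild type day 14 library 1. The wild type count was 1, 1 and 2 without day 8 library 1, day 8 library 2 and day 14 library 2, and the null count 5, 5, 4 and 5 without wild type day 8 library 1 or 2, null day 8 library 2 or null day 14 library 2. Collagens rose for 8 of 24 in wild type and 9 of 24 in the null, against 2.47% and 4.29% of all genes. Of the collagen interactions, 0 had an unadjusted p under 0.05, against 6.08% of all genes. The wild type count was 3, 1, 5 and 3 without day 8 library 1, day 8 library 2, day 14 library 1 and day 14 library 2. The collagen sum differed between the null day 8 libraries, 7142 and 3140 CPM, and without null day 8 library 1 the interaction count was 9. The median collagen interaction of 0.24 was 0.87 without null day 8 library 1, −0.24 without null day 8 library 2, −0.0163 without wild type day 8 library 1 and 0.09 without null day 14 library 2. Cholesterol synthesis genes fell for 11 of 22 in wild type and 5 of 22 in the null, against 1.57% and 3.41% of all genes. The wild type count was not stable: it was smaller without any 1 wild type library. The median wild type change of −1.22 then ran from −1.43 to −0.94. The median null change was −0.74. The median interaction was 0.23, or 0.04 without null day 14 library 1.

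Of 33 genes of Polycomb repressive complex 1, 0 had an interaction at an unadjusted p under 0.05, against 6.08% of all genes, and the median was −0.08. Of 12 of complex 2, 1 had, Suz12 at −0.73, which is near that share, and the median was −0.11. Yaf2, the closest relative of Rybp, stood at 15.7 and 22.8, 21.6 and 17.6, 13.1 and 17.0, and 14.9 and 15.1 CPM, with an interaction of −0.02; wild type ran from 15.7 to 22.8 CPM over the 2 days and the null from 13.1 to 17.0. Plagl1 and Meg3, imprinted genes, lay far lower in the null on both days. Plagl1 stood at 12543 and 11149 CPM in wild type day 8, 20110.5 and 22688 in wild type day 14, 161 and 149 in null day 8, and 155 and 299 in null day 14, with an interaction of −0.30. Meg3 stood at 2219 and 2042, 2349 and 1858, 215 and 120, and 142 and 151 CPM, with an interaction of −0.18. Of 22 imprinted genes tested, 4 had a positive value at an unadjusted p under 0.05 (2.93% of all genes) and 0 a negative one. The 4 became 9 without null day 8 library 1 and 2 without either wild type day 8 library or wild type day 14 library 1, and up to 3 negative values appeared, without null day 8 library 2. Among them, Mest fell in wild type by 1.16 (adjusted p = 0.00318; up to 0.0728 without wild type day 8 library 2 or day 14 library 2) and Zim1 rose in the null by 1.37 (adjusted p = 0.00139). Their interactions were 0.91 and 0.94.

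Pou5f1, the pluripotency factor, was at 0.742 to 3.74 CPM over the 8 libraries, with an interaction of −1.04. Nanog stood at 16.3 and 27.3, 36.5 and 21.4, 40.4 and 88.9, and 36.0 and 16.1 CPM, with the null day 8 libraries above all others and an interaction of −1.71 (adjusted p = 0.803). Genes on chromosomes 1, 6, 8 and 14, whose median level was higher in the null by 0.30 at day 8 and by 0.28 at day 14 on the log2 scale, had a median interaction of −0.01, against −0.02 on the other autosomes.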

How the data were processed

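The authors deposited 1 table of whole-number read counts per Ensembl gene, not normalized. The submitters' processing notes name TopHat, HTSeq, DESeq and the build mm9; their versions, the annotation and the strand setting are not given in the sources at hand. Overlapping or antisense genes and near-identical copies, such as the globins, can therefore share counts. Symbols were found for 30946 of 36191 gene IDs.

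Genes were kept by edgeR's filterByExpr (minimum count 10; 15819 genes), scaled by TMM and fitted in R 4.3.3 with edgeR 4.0.16 (robust quasi-likelihood test, two-sided) over all 10 libraries in 6 genotype-by-day groups, which left 4 residual degrees of freedom. Adjusted p values are Benjamini-Hochberg over all genes tested, called under 0.05. DESeq2 1.42.0 was an alternative. A group at 0 counts was given a floor of 3 counts over its libraries; intervals are 95% and cover counting error only. RefSeq promoters came from GRCm38.p6 and were matched by symbol, with no coordinates of the deposited build converted.

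The genes named by rule were the 10 with a symbol and the smallest interaction p in each direction, a fixed set (Rybp, Yaf2, Plagl1, Meg3, Isl1, Nkx2-5, Tnnt2, Myh6, Myh7, Ttn, Actc1, Pou5f1 and Nanog) and the 2 members with the smallest p of each of 34 gene lists, a selection of which is printed. Genes outside this rule were markers set with the design or were named after their values were seen. The comparison, the lists and the markers were chosen with earlier results of these data known. Lists hold 914 distinct genes, of which 772 were tested; members that failed the filter on low counts enter no list count.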

Additional observations from a re-analysis of the deposited data

How the results depend on the processing

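The count of genes called in the interaction was 8 with DESeq2 (6 higher, 2 lower) and 65 without the filter on low counts (39 higher, 26 lower), and 0 with size factors of DESeq2 in edgeR, a minimum count of 30, the 8 libraries alone, no robust estimation, or without chromosomes 1, 6, 8, 14 and Y. DESeq2 called Acp5, Arhgap30, Cd180, Lgals9, Mki67, Scel, Smyd1 and Ttn. Leaving out 1 library at a time gave 0 to 2 calls in the interaction, 108 to 935 in wild type and 613 to 1243 in the null. Without the filter the count was 1244 in wild type and 1892 in the null. The cause was not tested. With the replicate block the counts were 0, 507 and 929. The labels do not say what a replicate number marks, so the numbers were not taken to pair the libraries. Same-numbered libraries of the 2 days deviated together at a correlation of −0.01 in wild type and −0.21 in the null. Those of the 2 genotypes did so at 0.07 at day 8 and 0.16 at day 14. Over 83 genes and 16 alternatives the interaction changed sign in 7 of 1308 values, in each case on leaving out 1 library. The ranges were −0.32 to 0.22 for Yaf2, −0.54 to 0.31 for Meg3, −0.85 to 0.10 for Plagl1, −0.52 to 1.04 for Rbm24 and −0.0878 to 3.59 for Myh6. The median interaction kept its sign under every alternative for the sarcomere (0.46 to 1.63), macrophage (0.69 to 3.64), interferon (1.41 to 3.01), osteoclast (−2.25 to −1.11), endothelial (−1.31 to −0.32) and cell cycle lists (−0.90 to −0.64). Among other lists given it turned sign for the red blood cell (−1.21 to 0.62), epicardial (−0.38 to 1.45), collagen (−0.24 to 0.87), smooth muscle (−0.0028 to 0.79), Polycomb complex 2 (−0.14 to 0.01), visceral endoderm (−0.47 to 0.66) and Wnt lists (−0.04 to 0.44). Depth limits genes under 5 CPM most, where the median standard error was 1.14.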

Other observations

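Afp and Apoa1, genes of visceral endoderm, started near 0 in the null, while the whole list of that tissue did not: its summed level was 457 and 772 CPM in null day 8, against 789 and 759 in wild type day 8. Afp, a fetal relative of albumin, stood at 11.8 and 7.33 CPM in wild type day 8, 43.5 and 34.7 in wild type day 14, 0.242 and 0 in null day 8, and 8.45 and 2.72 in null day 14. The null went from 1 count to 41, a pooled ratio of 41.1 (95% counting interval 6.97 to 1661), against 4.11 in wild type. Apoa1, a lipoprotein of the same tissue, stood at 11.5 and 14.7, 19.8 and 15.8, 0 and 0.863, and 12.4 and 2.97 CPM, and all null libraries but library 1 of day 14 were below wild type. Ppargc1a, a coactivator of mitochondrial genes, stood at 9.26 and 10.7, 15.2 and 9.70, 1.45 and 1.15, and 8.73 and 13.6 CPM, and rose in the null by 3.06 (adjusted p = 0.00395), with an interaction of 2.75. Among Wnt pathway genes 5 of 24 tested had a positive value at an unadjusted p under 0.05 (2.93% of all genes) and 0 a negative one, with a median of 0.06. The 5 became 0 without wild type day 14 library 1, 2 without wild type day 8 library 2 and 3 without wild type day 8 library 1, wild type day 14 library 2, null day 8 library 2 or null day 14 library 1. They included Wnt5a, a noncanonical ligand, which stood at 63.9 and 89.9, 34.4 and 38.3, 115 and 109, and 85.3 and 111 CPM.

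Krt7, a keratin of simple epithelia, rose in both genotypes, from 3.83 and 7.61 to 53.2 and 63.6 CPM in wild type and from 17.2 and 33.1 to 77.1 and 72.4 in the null, with an interaction of −1.75. Plac1, a gene of the placenta, fell in wild type from 3.51 and 7.89 to 0.608 and 0.766 CPM (adjusted p = 0.0196; up to 0.227 without wild type day 8 library 2 or either day 14 library) and stood at 15.7 and 20.1 and then 15.2 and 13.1 CPM in the null. Car9, a carbonic anhydrase induced by low oxygen, had 30 counts in wild type day 14 and 0 in null day 14, against 2 and 17 at day 8.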
